A study of Mus musculus with 12 samples.

Results

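The liver's response to a high-fat diet (HFD) that ran the same way with and without the necroptosis protein MLKL comprised 1298 of the 18098 genes tested (7.17%). Members were chosen in a model with 1 mean per group. The effect of HFD over normal chow (ND) was averaged over wild-type and Mlkl-/- mice and had to pass an adjusted p of 0.05, and the gene had to move in the same direction in each genotype. Of these genes 643 rose (shared risers) and 655 fell (shared fallers). Of the 1302 genes called for the averaged effect, 4 moved in opposite directions and were left out. Opposite effects cancel in an average, so the call itself favoured genes of the same direction. No minimum size was asked of either genotype alone.

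All 12 libraries of the series were used, with 3 livers in each of 4 groups: wild-type on ND, wild-type on HFD, Mlkl-/- on ND and Mlkl-/- on HFD. Mice began the diets when 8 to 9 weeks old, and the HFD held 36% fat and drew 59% of its energy from lipid. The labels give every liver as 25 weeks on its diet, whereas the series' design allows any length from 16 weeks up to that. Livers came from fed animals picked for organ weights near the mean. Every title carries a different animal number, and neither sex nor how the Mlkl allele was made is given. Transcripts were counted from their 3' ends in whole liver, so fewer cells of a type and less RNA per cell cannot be told apart.

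A diet rich in fat fills hepatocytes with triglyceride stored in droplets. Fatty acids reach the hepatocyte by uptake from blood or by new synthesis, and leave it by oxidation in mitochondria and peroxisomes or by export in lipoproteins. The nuclear receptor PPAR-alpha senses fatty acids and drives the oxidation genes, PPAR-gamma drives droplet genes, and LXR with SREBP proteins drives the synthesis of fatty acids and sterols. The same hepatocytes also make most plasma proteins and clear drugs and steroids through cytochrome P450 enzymes of the Cyp2 and Cyp3a families.

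Library totals ran from 19435391 to 32120426 counts. Mlkl itself stood at 3.01 to 7.65 CPM (counts scaled to a common library total) in the 6 wild-type libraries and at 0.433 to 1.40 CPM in the 6 Mlkl-/- libraries, and it was not called for diet (average log2 change 0.52 ± 0.25 SE, edgeR adjusted p = 0.243). Hepatocyte transcripts led every library, with Alb at 40800 to 71460 CPM. The libraries also fell into 2 levels at 8 loci, among them Lars2, Mir6236 and Gm15564, whose summed raw counts made 3484 to 9239 CPM in 6 libraries and 378 to 656 CPM in the others. The higher level held 5 of the 6 HFD libraries and 1 of the 6 ND libraries, so it moved with diet. Its part in the results was not tested beyond fits with the level as a term. Fitted with that level as a term, all 1298 members kept their direction and 107 kept their call. Members had been chosen for that direction in these same libraries. The median log2 change went from 0.73 to 0.63 in risers and stayed at -0.57 and -0.58 in fallers. Title codes also followed diet: ND livers carry 23 or 27 and HFD livers 25 or 29, and no code holds both diets, so code and diet cannot be told apart.

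Across all tested genes 7.19% were called for the averaged diet effect, 3.57% higher and 3.62% lower on HFD. Called counts of the gene lists below are to be read beside these shares. Of all tested genes 58.7% had the same sign in both genotypes, in either direction. List counts below give genes higher in both genotypes, or lower in both, separately. The share of all tested genes for each direction alone is smaller than 58.7% and is not given here. The shared risers had a median log2 change of 0.73, with 205 over 2-fold and 59 over 4-fold. Shared fallers moved less, with a median of -0.57, 119 over 2-fold and 34 over 4-fold. At the threshold, Unc93a stood just inside (0.57, adjusted p = 0.0498) and Prkd2 just outside (0.52, adjusted p = 0.0501) among genes higher on HFD. Dnajc24 (-0.48, adjusted p = 0.0499) and Rps15a-ps5 (-0.49, adjusted p = 0.0502) held these places among genes lower on HFD. For 633 members, 359 risers (1.98% of tested genes) and 274 fallers (1.51%), the 3 HFD libraries and the 3 ND libraries did not overlap in either genotype, which is 3.5% of all tested genes. Whatever the call, 4.94% of all tested genes had no overlap in the same direction in both genotypes and 0.707% in opposite directions.

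**Figure D1:**
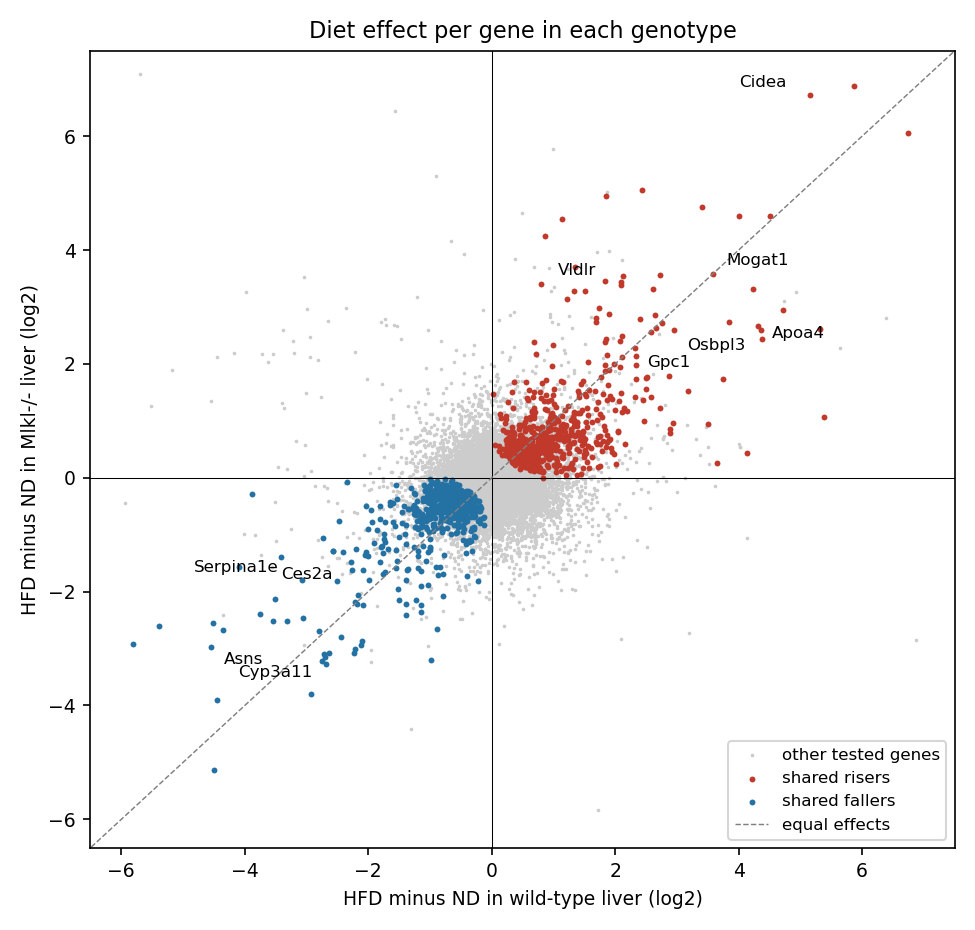
Log2 difference between HFD and ND in wild-type liver (horizontal axis) and in Mlkl-/- liver (vertical axis) for each tested gene, from the edgeR fit, with shared risers in red, shared fallers in blue and 8 genes outside the axes not drawn. More coloured points lie on the wild-type side of the dashed line of equal effects (394 of 643 risers and 484 of 655 fallers); the medians were 0.81 in wild-type and 0.63 in Mlkl-/- for risers and -0.73 and -0.46 for fallers.

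The size of the change was uneven between genotypes. Risers had a median log2 change of 0.81 in wild-type and 0.63 in Mlkl-/- liver, and 394 of 643 moved more in wild-type. Among fallers the medians were -0.73 and -0.46, and 484 of 655 moved more in wild-type. The difference between genotypes itself passed the adjusted threshold for 0 genes with edgeR and 0 with limma-voom, and for 50 (0.276%) with DESeq2. At an unadjusted p under 0.05 edgeR counted 1889 genes (10.4% of those tested), 223 of them shared members. A missed threshold does not show that the genotypes respond alike, and the interval of the difference is given with single genes.

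The 2 within-genotype contrasts, with 766 genes (4.23%) called in wild-type and 65 (0.359%) in Mlkl-/- liver, use different animals, so genes called in one could be read in the other. Both contrasts share the dispersion fit, and title codes and the level of the 8 loci moved with diet in each genotype. The part of these in the values read across was not tested. Of 366 genes that rose in wild-type liver, 303 were also higher in Mlkl-/- liver, where their median log2 change was 0.45 against 1.10 where they were called. Of these 366, 44.8% had no overlap in Mlkl-/- liver in the same direction, against 8.02% of all tested genes. Of 400 genes that fell in wild-type liver, 366 were also lower in Mlkl-/- liver (median -0.29 against -0.82), and 27% did not overlap there, against 7.49% of all tested genes. In the other direction, all 38 genes that rose in Mlkl-/- liver were higher in wild-type liver, with a median of 0.98 against 1.52. Of the 27 that fell in Mlkl-/- liver 25 were lower in wild-type liver, with a median of -1.14 against -1.49. Smaller values where a gene was not selected are part of how it was read, since calling favours large estimates.

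Only 37 genes, 0.204% of those tested, were called in both genotypes separately; they comprised 21 risers and 16 fallers. A further 348 risers and 320 fallers were called in neither genotype alone and passed only with the 12 libraries together. The genes called in both genotypes were looked up after their values were seen, and several are described below. The largest of them, B430212C06Rik, rose by 4.30 (4.01 in wild-type and 4.60 in Mlkl-/-).

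**Figure D2:**
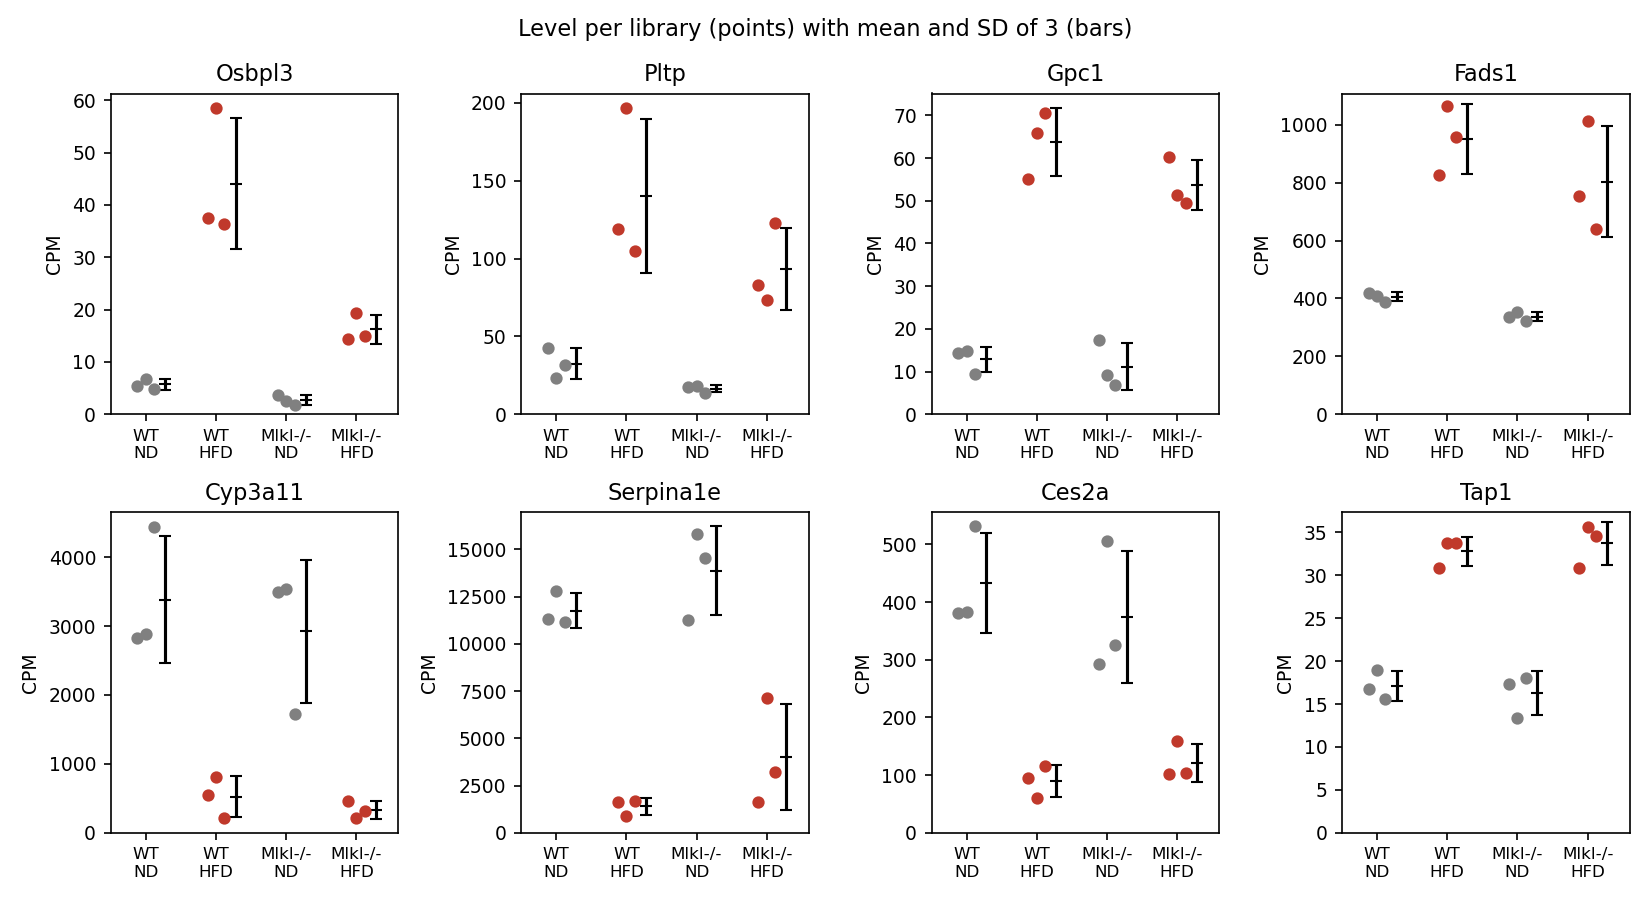
Level of 8 shared genes in CPM (vertical axes, from 0) in each of the 12 libraries; points are libraries (grey ND, red HFD) and bars give the mean ± SD of 3. In each panel the 3 HFD livers of a genotype lie wholly above (Osbpl3, Pltp, Gpc1, Fads1, Tap1) or below (Cyp3a11, Serpina1e, Ces2a) its 3 ND livers. For all but Fads1 and Tap1 the naming rule for genes of largest change required this.

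Several named risers of large change handle lipid. Osbpl3, an oxysterol-binding protein that moves lipids between membranes, had the smallest adjusted p of all named genes. In wild-type liver it stood at 5.43, 6.83 and 4.81 CPM on ND and at 37.4, 58.5 and 36.4 CPM on HFD. In Mlkl-/- liver the values were 3.68, 2.61 and 1.78 CPM on ND and 14.5, 19.4 and 14.9 CPM on HFD. Every HFD liver was above every ND liver of both genotypes, and the levels in Mlkl-/- liver lay below those of wild-type on the same diet. Its average log2 change was 2.78 ± 0.18 SE (edgeR adjusted p = 4.31e-06), with a Mlkl-/- minus wild-type difference of -0.36 (95% interval -1.15 to 0.43). With the level of the 8 loci as a term it was 2.45 (adjusted p = 0.000113).

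Of 21 tested genes of lipid uptake and intracellular lipid binding, 6 rose and 0 fell, with a median log2 change of 0.27 against -0.01 over all tested genes. Vldlr, a receptor for triglyceride-rich lipoproteins that is scarce in normal liver, stood at 1.21 to 1.72 CPM in wild-type ND livers and 0.147 to 0.576 CPM in Mlkl-/- ND livers. On HFD it reached 4.29 to 8.77 and 2.31 to 6.15 CPM, with no overlap between diets (average log2 change 2.73 ± 0.31, edgeR adjusted p = 0.000409). Fabp2, a fatty acid-binding protein best known from intestine, ran from 40.3 to 78.3 CPM over the 6 ND livers and from 128 to 194 CPM over the 6 HFD livers. That change, 1.42 ± 0.12 (adjusted p = 6.97e-05), was among the most uniform. Cd36, a fatty acid translocase, rose by 1.66 ± 0.33 on the log2 scale (adjusted p = 0.0172), but its Mlkl-/- livers overlapped between diets: HFD replicate 2 read 42.5 CPM, inside the ND range of 24.1 to 49.9 CPM. Slc27a1 (0.75) and Mfsd2a (1.02), transporters of fatty acids and lysophospholipids, were the other risers.

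Of 19 tested droplet proteins 9 were called higher and 0 lower, the median was 0.55, and 17 of 19 were higher in both genotypes. Cidea, which fuses droplets into larger ones and is best known from brown fat, stood at or below 0.855 CPM in the 6 ND livers. On HFD it read 19.8, 27.9 and 13.8 CPM in wild-type and 5.68, 0.529 and 13.7 CPM in Mlkl-/- liver (average log2 change 5.94 ± 0.84, edgeR adjusted p = 0.00513). Levels so close to 0 on ND make that fold depend on the constant the fit adds to counts. Its relative Cidec rose by 2.57 ± 0.45 (adjusted p = 0.0136), from 13.6 to 24.5 CPM to 78.7 to 134 CPM in wild-type liver. In Mlkl-/- liver Cidec overlapped, since HFD replicate 2 read 9.48 CPM and ND replicate 1 read 10.7 CPM. The lipases Pnpla3 (2.34), Lipe (1.19) and Pnpla2 (0.46), which release fatty acids from stored lipid, also rose, as did Fitm2 (0.60), Mgll (0.64), Plin3 (0.42) and Plin4 (1.02). Lipe, the hormone-sensitive lipase, was even between genotypes, at 1.18 in wild-type and 1.19 in Mlkl-/- (95% interval of the difference -0.69 to 0.71). Plin2, the main droplet coat of hepatocytes, was not called (0.27 ± 0.20, adjusted p = 0.485). None of the 9 droplet members kept the call with the level of the 8 loci as a term, where the list's median was 0.34 and Cidea stood at 5.96 (adjusted p = 0.0713).

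Triglyceride synthesis had 2 called members of 14, both higher (14.3%, against 3.57% of all tested genes). Mogat1, which makes diacylglycerol from monoacylglycerol, stood at 0.266 to 0.835 CPM over the ND livers. It read 9.73, 12.0 and 6.70 CPM in wild-type HFD livers and 5.82, 0.529 and 4.37 CPM in Mlkl-/- HFD livers. Diets did not overlap within either genotype, but the lowest Mlkl-/- HFD liver lay below the wild-type ND livers, at 0.753 to 0.835 CPM. The average log2 change was 3.59 ± 0.45 (edgeR adjusted p = 0.00165). Agpat3, an acyltransferase, rose by 0.43 ± 0.10 (adjusted p = 0.0204).

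Fatty acid synthesis and desaturation followed, with 8 of 20 members called higher, 0 lower, 7 without overlap and a median of 0.82. Fads1, the delta-5 desaturase of polyunsaturated fatty acids, read 420, 408 and 388 CPM in wild-type and 336, 352 and 323 CPM in Mlkl-/- ND livers. Its HFD levels were 827, 1066 and 959 CPM and 755, 1014 and 640 CPM, so all 6 lay above all 6 ND livers (1.24 ± 0.12, edgeR adjusted p = 0.000133). The effect was 1.23 in wild-type and 1.25 in Mlkl-/-, with a 95% interval of the difference from -0.50 to 0.55. Other risers were Fads2 (1.22), the elongases Elovl5 (1.38) and Elovl2 (0.54), the stearoyl-CoA desaturase Scd1 (1.06), Acss2 (0.98) and malic enzyme Me1 (1.19). Acacb, the acetyl-CoA carboxylase whose product restrains mitochondrial uptake of fatty acids, rose by 2.04 ± 0.27 (adjusted p = 0.0024), from 20 to 59.3 CPM on ND to 97.6 to 235 CPM on HFD. The committed enzymes Fasn (0.87 ± 0.27, adjusted p = 0.0758) and Acaca (0.38 ± 0.17, adjusted p = 0.215) and the regulator Srebf1 (0.39 ± 0.15, adjusted p = 0.128) did not pass.

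Oxidation genes and PPAR-alpha targets formed the list with the highest share of risers: 22 of 34 were called higher, 0 lower, and 31 were higher in both genotypes. Their median change was 0.56, at 0.53 in wild-type and 0.56 in Mlkl-/- liver. Cyp4a14, a fatty acid omega-hydroxylase, read 225, 91.2 and 313 CPM in wild-type and 58.3, 65.5 and 64.3 CPM in Mlkl-/- ND livers. On HFD it reached 945, 628 and 674 CPM and 1118, 194 and 750 CPM (2.65 ± 0.43, edgeR adjusted p = 0.00872). The lowest HFD liver, Mlkl-/- replicate 2, was above its own ND group but below 2 wild-type ND livers. Vnn1, a pantetheinase that supplies a coenzyme A precursor, rose by 2.11 ± 0.31 (adjusted p = 0.00454), Aldh3a2, a fatty aldehyde dehydrogenase, by 1.46 ± 0.17 (adjusted p = 0.000447), and the peroxisomal thiolase Acaa1b by 1.00. The thioesterases Acot1 to Acot5 all rose, by 0.75 to 2.22; they are close copies in 1 cluster, so single values among them are uncertain. Mitochondrial enzymes moved less, such as Hadh (0.63), Acadl (0.45), Acads (0.44) and Bdh1 (0.67), which interconverts ketone bodies. Cpt1a, which admits fatty acids to mitochondria, was not called (0.32 ± 0.12, adjusted p = 0.115), and Fgf21 stood at 0.06 ± 0.45 (adjusted p = 0.962). With the level of the 8 loci as a term the list's median was 0.58 and 3 of the 22 kept the call; Cyp4a14 stood at 2.87 (adjusted p = 0.0872) and Vnn1 at 1.89 (adjusted p = 0.0989).

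Lipoprotein genes split. Pltp, the phospholipid transfer protein of plasma lipoproteins and an LXR target, stood at 23 to 42.6 CPM in wild-type and 13.7 to 18.2 CPM in Mlkl-/- ND livers. Its HFD levels were 105 to 197 and 73.3 to 123 CPM, without overlap (2.30 ± 0.20, edgeR adjusted p = 0.000133). Apoa4, an apolipoprotein secreted with triglyceride-rich particles, read 83.1 to 223 CPM in wild-type and 118 to 484 CPM in Mlkl-/- ND livers. It reached 1919 to 4768 and 1331 to 1980 CPM on HFD (3.48 ± 0.42, adjusted p = 0.00232), with effects of 4.36 and 2.59 and a 95% interval of the difference from -3.64 to 0.10. Apoc2, the activator of lipoprotein lipase, rose by 1.04 ± 0.14 (adjusted p = 0.00122) and Lipg, endothelial lipase, by 1.15 ± 0.30 (adjusted p = 0.0435). Apom, an apolipoprotein of high-density lipoprotein, fell by 0.68 on the log2 scale (adjusted p = 0.0149). Apob, the structural protein of very low-density lipoprotein (-0.33, adjusted p = 0.14), and Mttp, which loads it with lipid (0.10, adjusted p = 0.567), were not called. Of the 20 tested, 4 rose (20%) and 1 fell (5%), against 3.57% and 3.62% of all tested genes.

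Cholesterol synthesis rose in 10 of 24 members with 0 lower, but unevenly: the list's median was 0.95 in wild-type and 0.16 in Mlkl-/- liver. Fdps, which makes farnesyl diphosphate, stood at 70.9 to 83.5 CPM in wild-type and 82.8 to 173 CPM in Mlkl-/- ND livers, and at 173 to 307 and 166 to 200 CPM on HFD. Mlkl-/- ND replicate 1, at 173 CPM, lay within the HFD range of its genotype. The average change was 1.15 ± 0.17 (edgeR adjusted p = 0.00246), at 1.70 in wild-type and 0.59 in Mlkl-/-, with a 95% interval of the difference from -1.86 to -0.36 and an adjusted p of 0.392 for it. Mvd was similar, at 2.01 and 0.23, and Nsdhl stood at 1.23 and 0.55. Only 2 of the 10, Nsdhl and Sc5d, had no overlap in either genotype. None of the 10 kept the call with the level of the 8 loci as a term, and the median went from 0.49 to 0.18.

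**Figure D3:**
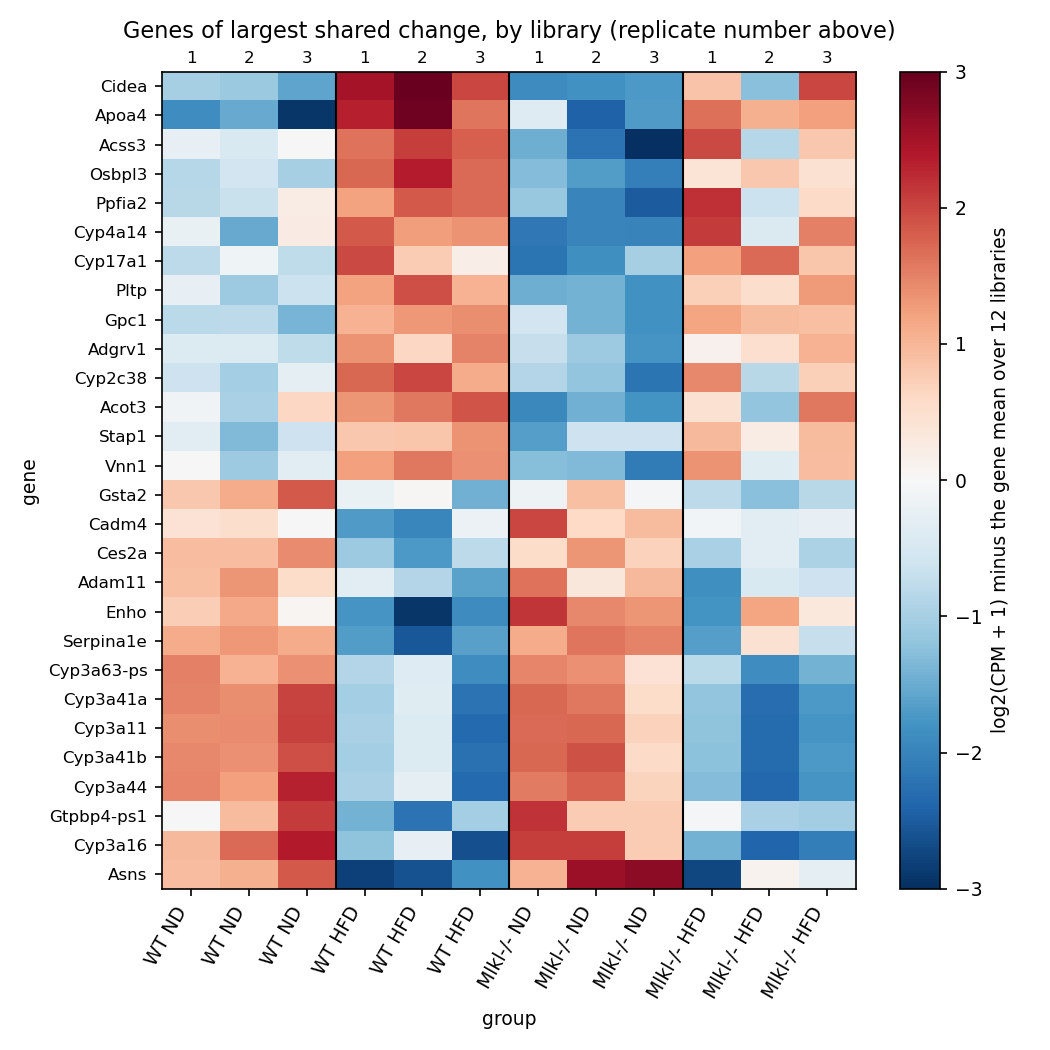
Level in each library (columns, grouped, replicate number above) of the named genes of largest shared change (vertical axis), as log2(CPM + 1) minus the gene's mean over 12 libraries; red is higher, blue lower, and the colour scale ends at 3. Mlkl-/- HFD replicate 2 is closer to the ND livers than the other HFD livers are for Cidea, Acss3, Cyp4a14, Vnn1 and Enho, whereas the Cyp3a genes were as low there as in the others.

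Livers of one group did not respond equally. As the median deviation of the 643 risers from each gene's mean over 12 libraries, on the log2(CPM + 1) scale, the wild-type HFD livers stood at 0.37, 0.55 and 0.43 and the Mlkl-/- HFD livers at 0.25, 0.04 and 0.20. The ND livers ran from -0.44 to -0.23. For the 655 fallers the wild-type HFD livers stood at -0.33, -0.41 and -0.43 and the Mlkl-/- HFD livers at -0.19, 0.03 and -0.23, against 0.18 to 0.37 in ND livers. Of the HFD livers, Mlkl-/- HFD replicate 2 thus lay closest to the ND livers in both directions. These genes were called for diet in the same libraries, so the parting of HFD from ND livers was built in. Over all tested genes the library medians ran from -0.0096 to 0.0049. Without it 1441 genes were called for the averaged effect, against 1302 with it. Left out singly, Mlkl-/- ND replicate 1 gave 2029 calls and wild-type HFD replicate 2 gave 616, the highest and the lowest of the 12.

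**Figure D4:**
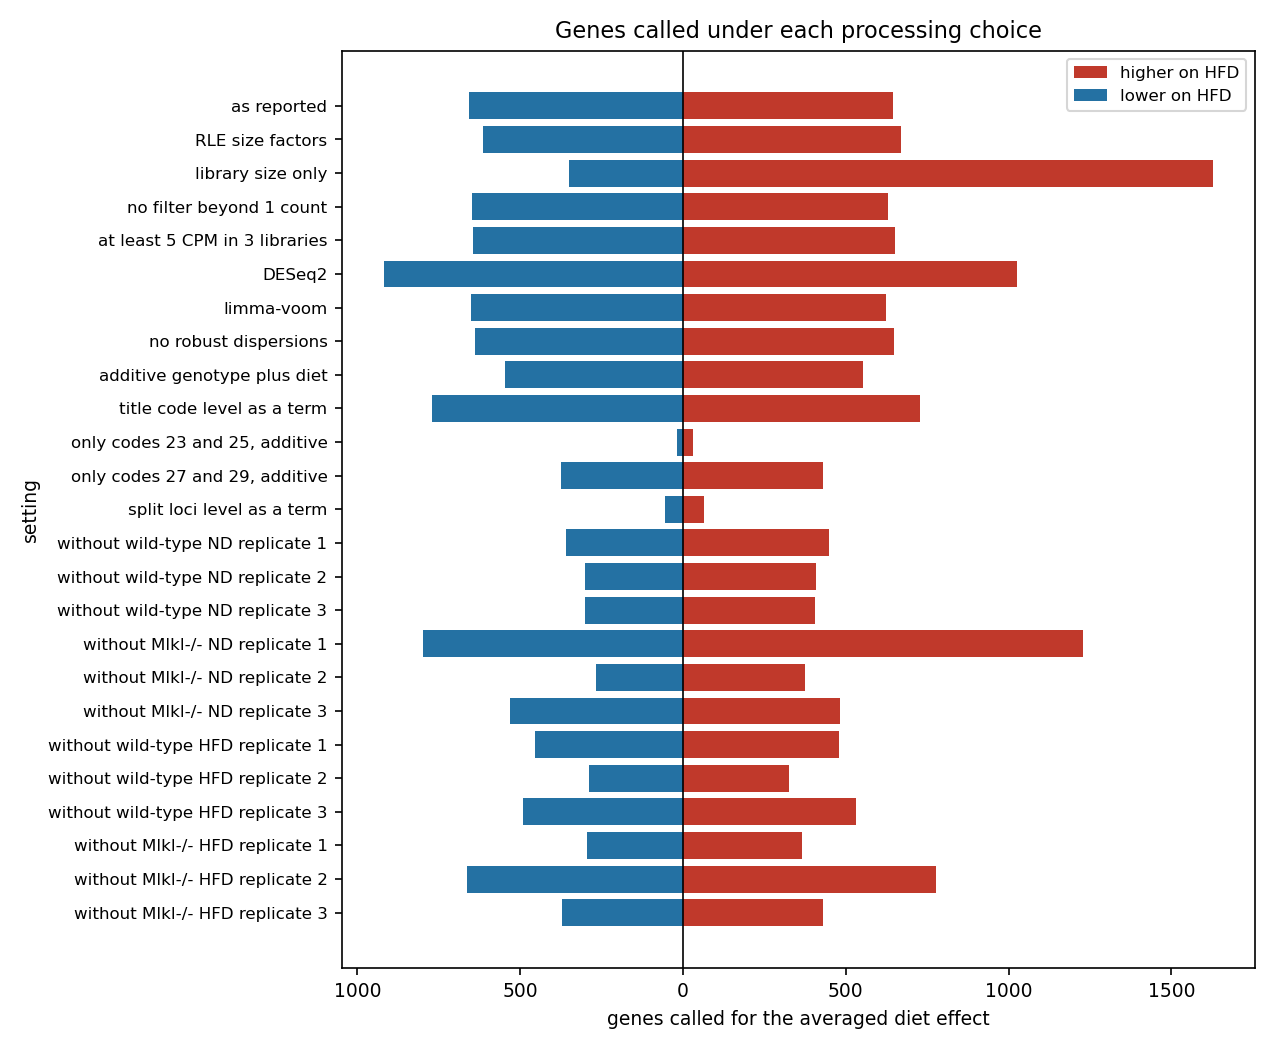
Number of genes called for the averaged diet effect (horizontal axis), higher on HFD to the right in red and lower to the left in blue, under each processing choice and with each library left out (vertical axis). The bars are shortest for titles coded 23 or 25 alone (48 genes) and with the level of the 8 loci as a term (122 genes), and longest without Mlkl-/- ND replicate 1 (2029 genes).

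Among fallers the Cyp3a family, P450 enzymes that oxidize steroids, bile acids and many drugs, held 9 of the named genes of largest change or smallest adjusted p. Cyp3a11, the most abundant of these, read 2821, 2886 and 4443 CPM in wild-type and 3501, 3542 and 1728 CPM in Mlkl-/- ND livers. On HFD it read 547, 810 and 213 CPM and 467, 216 and 312 CPM. All 6 HFD livers lay below all 6 ND livers (-2.92 ± 0.35, edgeR adjusted p = 0.00192), with -2.69 in wild-type and -3.14 in Mlkl-/- (95% interval of the difference -2.003 to 1.11). Cyp3a16 (-3.36), Cyp3a44 (-2.99), Cyp3a41b (-2.97) and Cyp3a41a (-2.90) fell as far at lower levels, from 62.5 to 284 CPM on ND to 5.01 to 53.0 CPM on HFD. The Cyp3a25, Cyp3a59 and Cyp3a57 genes fell by less, -1.24, -1.39 and -1.26, and more evenly. Cyp3a25 stood at 601 to 1065 CPM over the ND livers and at 273 to 432 CPM over the HFD livers (adjusted p = 0.000196). With the level of the 8 loci as a term Cyp3a11 stood at -3.01 (adjusted p = 0.0385) and Cyp3a25 at -1.02 (adjusted p = 0.0139). Cyp3a16 (-3.61, adjusted p = 0.0717), Cyp3a44 (-3.07, adjusted p = 0.0695) and Cyp3a41b (-3.07, adjusted p = 0.0519) then missed the threshold.

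The family lies in 1 stretch of chromosome 5 and holds close copies, so the promoters of members that fell together are set side by side to show which are copies. Windows run from 250 bases before to 50 after the start, from RefSeq on GRCm38.p6, and all 4 shown lie on the minus strand. Capitals mark AGGTCA, the site of many nuclear receptors, and TGATGNAA, the letters of an amino acid response element, on either strand.

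Cyp3a11 at chr5:145879805-145880104: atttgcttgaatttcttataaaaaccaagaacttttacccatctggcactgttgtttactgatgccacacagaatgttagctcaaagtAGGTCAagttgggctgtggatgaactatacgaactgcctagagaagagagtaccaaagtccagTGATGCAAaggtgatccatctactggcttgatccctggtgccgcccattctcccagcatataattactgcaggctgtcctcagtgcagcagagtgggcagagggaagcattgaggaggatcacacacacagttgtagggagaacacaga

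Cyp3a25 at chr5:146009568-146009867: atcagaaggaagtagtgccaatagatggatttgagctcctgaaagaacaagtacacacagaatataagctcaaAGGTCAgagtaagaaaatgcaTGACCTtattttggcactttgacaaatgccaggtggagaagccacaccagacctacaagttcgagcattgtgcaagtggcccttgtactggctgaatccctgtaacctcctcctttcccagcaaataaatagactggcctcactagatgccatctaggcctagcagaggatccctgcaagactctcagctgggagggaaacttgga

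Cyp3a41a at chr5:145720087-145720386: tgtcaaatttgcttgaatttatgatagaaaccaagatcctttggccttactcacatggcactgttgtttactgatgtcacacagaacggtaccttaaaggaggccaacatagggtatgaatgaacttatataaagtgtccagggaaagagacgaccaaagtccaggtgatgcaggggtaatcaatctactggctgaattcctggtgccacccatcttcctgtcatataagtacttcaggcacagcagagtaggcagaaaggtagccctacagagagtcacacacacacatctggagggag

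Cyp3a44 at chr5:145805825-145806124: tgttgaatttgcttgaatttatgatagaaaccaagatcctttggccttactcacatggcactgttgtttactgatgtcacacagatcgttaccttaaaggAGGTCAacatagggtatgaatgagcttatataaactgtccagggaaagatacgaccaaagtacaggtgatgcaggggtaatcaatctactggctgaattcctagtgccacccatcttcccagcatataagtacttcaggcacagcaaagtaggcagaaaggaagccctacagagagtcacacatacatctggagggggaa

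Position by position without gaps, Cyp3a44 and Cyp3a41a shared 92.3% of bases, Cyp3a41a and Cyp3a41b 97.3%, and Cyp3a25 and Cyp3a59 96.3%. Cyp3a11 shared 24.7% with Cyp3a41a and 30.3% with Cyp3a25, although a shift of a few bases would align more of it. Near-identical copies can exchange reads, so counts within each pair are uncertain, and no source used here states the strand setting of the counting. AGGTCA stood in 6 of the 9 promoters of matched Cyp3a fallers (66.7%). These belong to 5 of 8 genes, the near copies Cyp3a25 and Cyp3a59 among them, so they are not separate observations. It stood in 16.7% of 389 faller promoters, 18.1% of 630 riser promoters and 13.6% of all 14256 promoters of tested genes. The other sequences searched, on both strands, were TCACNCCAC, the letters of a sterol element (1.20% of all promoters), TGATGNAA (2.53%), the DR1 element of PPAR-alpha (0.302%), which can hold AGGTCA, and the ER6 element of the receptor PXR (0.014%). Among the 18 promoters of the oxidation risers 5, from 3 genes, held AGGTCA and 0 held the DR1 element. A match describes these letters alone.

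Other drug-metabolizing genes moved both ways. Of 35 tested Cyp2 and Cyp3 genes 10 fell and 2 rose, and 22 were lower in both genotypes. Cyp2c70, which makes muricholic acids in mice, fell by 1.28 on the log2 scale and Cyp2c29 by 0.94, whereas Cyp2c38 rose by 2.24 ± 0.41 (edgeR adjusted p = 0.0151) and Cyp2e1 by 0.53. Among 37 conjugating enzymes and carboxylesterases 7 fell and 3 rose. Ces2a, a carboxylesterase, read 382, 383 and 532 CPM in wild-type and 292, 505 and 326 CPM in Mlkl-/- ND livers. Its HFD levels were 94.2, 60.1 and 116 CPM and 101, 159 and 104 CPM, so each HFD liver lay below each ND liver (-1.95 ± 0.20, adjusted p = 0.000196). The pi-class glutathione transferases Gstp1 (-1.48) and Gstp2 (-1.53), near-identical neighbours, and the alpha-class Gsta2 (-1.54) fell, and the mu-class Gstm2 rose by 1.00.

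Proteins that hepatocytes secrete fell in 14 of 38 members, with 0 higher, a median of -0.45 and 28 lower in both genotypes. Serpina1e, a variable member of the alpha-1-antitrypsin cluster, read 11320, 12810 and 11160 CPM in wild-type and 11260, 15800 and 14550 CPM in Mlkl-/- ND livers. It dropped to 1614, 894 and 1673 CPM and to 1643, 7113 and 3233 CPM on HFD (-2.44 ± 0.31, edgeR adjusted p = 0.00192). The groups did not overlap, and Mlkl-/- HFD replicate 2 was again the HFD liver nearest to ND. Its paralogs Serpina1a to Serpina1d fell by 0.73 to 0.95 on the log2 scale, and reads among these copies are uncertain. The fibrinogen chains Fga (-1.05), Fgb (-0.98) and Fgg (-0.90) and the complement proteins C8a (-1.05) and C9 (-0.87) fell too. Alb (-0.29 ± 0.15, adjusted p = 0.282) and Trf (-0.08 ± 0.12, adjusted p = 0.755) did not pass. With the level of the 8 loci as a term 0 of the 14 kept the call.

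Sex-biased liver genes were mixed. Of 24 genes that male livers usually express more, 4 fell (Serpina1e, Gstp1, Gstp2 and C8b), 0 rose, and 22 were lower in both genotypes, with a median of -0.79. Of 20 female-biased genes 7 rose and 4 fell. The fallers were all of the Cyp3a family (Cyp3a16, Cyp3a41a, Cyp3a41b and Cyp3a44), and the risers were Cyp4a14, Cyp17a1, Acot3, Cyp4a10, Acot4, Fmo2 and Rtn4. Cyp17a1, a steroid hydroxylase and lyase, read 7.71 to 35.6 CPM on ND and 44.5 to 156 CPM on HFD (2.35 ± 0.36, edgeR adjusted p = 0.00679).

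**Figure D5:**
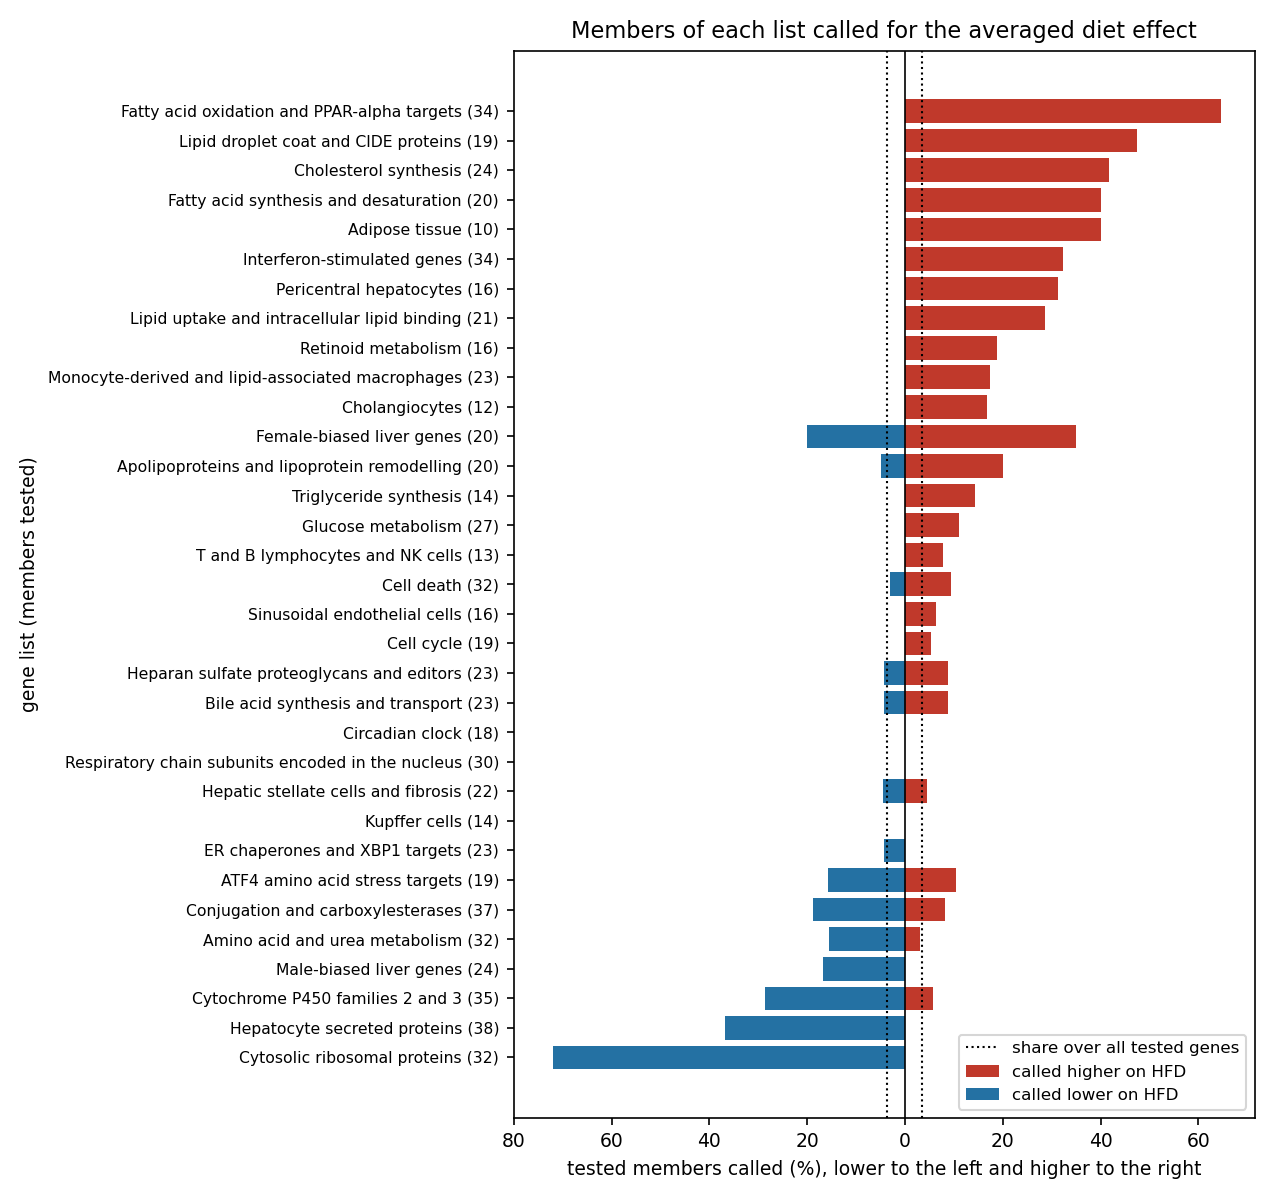
Share of the tested members of each gene list with 10 or more tested members (vertical axis, number in brackets) that were called higher (red, to the right) or lower (blue, to the left) on HFD, in percent; dotted lines mark the shares over all tested genes, 3.57% and 3.62%. Oxidation genes reach furthest to the right (22 of 34) and cytosolic ribosomal proteins furthest to the left (23 of 32).

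Amino acid genes fell more than they rose, 5 against 1 of 32, with 20 lower in both genotypes. The shares called lower and higher were 15.6% and 3.12%, against 3.62% and 3.57% of all tested genes. The list's median was -0.48 in wild-type and -0.06 in Mlkl-/- liver, and with the level of the 8 loci as a term it went from -0.33 to -0.02 and 1 of the 6 kept the call. Hdc, which makes histamine from histidine, fell from 8.10 to 13.4 CPM over ND livers to 2.72 to 5.67 CPM over HFD livers (-1.39 ± 0.17, edgeR adjusted p = 0.000548). Cth, of cysteine synthesis (-0.91), Sdsl (-0.86), Cps1, the first enzyme of the urea cycle (-0.81), and Gnmt (-0.76) fell too. Glul, glutamine synthetase of the hepatocytes around the central vein, rose by 1.05 ± 0.19 (adjusted p = 0.00551), and its Mlkl-/- ND replicate 1 read 879 CPM, as high as on HFD. Of 16 pericentral genes 5 rose and 0 fell; beside Glul these were the Wnt targets Axin2 (1.15) and Rnf43 (0.73), Lect2 (0.67) and Cyp2e1 (0.53).

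Asns, asparagine synthetase, was the named faller with the largest change and the widest spread. It read 20.6, 23 and 39.6 CPM in wild-type and 22.2, 66.5 and 72.4 CPM in Mlkl-/- ND livers. On HFD it read 0.641, 0.850 and 2.22 CPM and 0.716, 11.3 and 8.41 CPM (-3.76 ± 0.63, edgeR adjusted p = 0.0121). Diets did not overlap, but the Mlkl-/- HFD livers alone spanned from 0.716 to 11.3 CPM. The change was -3.18 with the level of the 8 loci as a term (adjusted p = 0.186). Its activator Atf4, the transcription factor of the amino acid stress response, fell by 0.40 and the serine synthesis enzyme Psat1 by 1.01 on the log2 scale. Elsewhere in the list of 19 ATF4 targets Vldlr and Shmt2 rose, while Trib3 (0.25, adjusted p = 0.445) and Ddit3 (-0.31, adjusted p = 0.252) were not called. The Asns promoter is shown because it holds an amino acid response element's letters, in capitals, 23 bases before the start (RefSeq, GRCm38.p6, minus strand).

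Asns at chr6:7693160-7693459: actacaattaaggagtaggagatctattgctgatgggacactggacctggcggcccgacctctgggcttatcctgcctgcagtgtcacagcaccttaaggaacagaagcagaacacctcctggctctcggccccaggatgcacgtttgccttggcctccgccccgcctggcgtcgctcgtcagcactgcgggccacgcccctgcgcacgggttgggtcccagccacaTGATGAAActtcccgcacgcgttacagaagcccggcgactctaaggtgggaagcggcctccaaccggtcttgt

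Ribosomal protein genes fell together by small amounts. Of 32 tested, 23 were called lower and 0 higher, and all 32 were lower in both genotypes, with a median of -0.44 (-0.60 in wild-type and -0.27 in Mlkl-/-). Only 6 of the 23 had no overlap in either genotype, Rpl3 among them, and the naming rule did not pick Rpl3. Rpl3 read 136 to 157 CPM in wild-type and 175 to 190 CPM in Mlkl-/- ND livers. It read 108 to 129 CPM over the HFD livers (-0.50 ± 0.08, edgeR adjusted p = 0.00366). With the level of the 8 loci as a term 0 of the 23 kept the call, and the list's median was -0.53. Rps28 (-0.75), Rps29 (-0.70) and Rpl38 (-0.66) moved most, but their diets overlapped within Mlkl-/- liver. Scaling matters for such small changes: by library size alone, without TMM factors, the median of all tested genes moved from -0.01 to 0.13, and 82.3% of the 1980 calls were higher against 49.6% of 1302. By that scaling 643 risers and 350 of the 655 fallers kept their call. Nuclear-encoded respiratory chain subunits had 0 of 30 called, with a median near 0 (-0.01).

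Interferon-stimulated genes rose in 11 of 34 members with 0 lower; the median was 0.78 in wild-type and 0.16 in Mlkl-/- liver. Usp18, which restrains interferon receptor signalling, read 2.06 to 2.70 CPM in wild-type and 3.94 to 4.90 CPM in Mlkl-/- ND livers. Its HFD levels were 5.88 to 14.3 and 6.10 to 10.7 CPM, without overlap in either genotype (1.43 ± 0.22, edgeR adjusted p = 0.00231). Tap1, the peptide transporter of antigen presentation, was even: 13.3 to 18.9 CPM over the ND livers and 30.9 to 35.7 CPM over the HFD livers of both genotypes (1.00 ± 0.10, adjusted p = 0.00014). Psmb9, a subunit of the immunoproteasome, rose by 1.02 ± 0.13 (adjusted p = 0.000896). Tap1 and Psmb9 are neighbours on chromosome 17 and were among the 37 genes called in both genotypes. Gbp6, an interferon-induced guanylate-binding protein, was among the least even, at 1.5 in wild-type and 0.36 in Mlkl-/- (95% interval of the difference -1.96 to -0.31).

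Of 23 tested heparan sulfate proteoglycans and their editors 2 rose and 1 fell, with a median of 0.10. These made 8.7% and 4.35% of the list, against 3.57% and 3.62% of all tested genes. Gpc1, glypican-1, a heparan sulfate proteoglycan, read 14.4, 14.8 and 9.36 CPM in wild-type and 17.3, 9.21 and 6.75 CPM in Mlkl-/- ND livers. On HFD it read 55.0, 65.8 and 70.6 CPM and 60.4, 51.2 and 49.6 CPM (2.30 ± 0.20, edgeR adjusted p = 0.000133). The diets lay far apart and the genotypes together, with effects of 2.32 and 2.28 and a 95% interval of the difference from -0.91 to 0.84. Sulf2, which removes sulfate from heparan chains, rose by 1.28 ± 0.13 (adjusted p = 0.000133), while Sdc1, the main syndecan of hepatocytes, fell by 0.57 on the log2 scale (adjusted p = 0.00583). Beyond that list, risers called in both genotypes included Unc5b (1.51 in wild-type and 1.48 in Mlkl-/-), a netrin receptor, Tmem86a (1.45 and 1.65), which cleaves lysoplasmalogens, and the water channel Aqp4 (1.57 and 2.03). By the ratio of the difference to the average effect, Prpf4b, Car5a, Pgrmc2 and Stap1 were most even and Hexa, Gbp6, Adora1 and Hnf1aos1 least.

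Retinoid dehydrogenases rose in 3 of 16 members of their list: Rdh16 (1.33), Rdh9 (1.15) and Rdh11 (0.73), with 0 lower. In glucose metabolism 3 of 27 rose, Ppp1r3g (1.76), which targets a phosphatase to glycogen, the hexokinase Hk2 (1.73) and pyruvate carboxylase Pcx (0.70). Pck1 (-0.55, edgeR adjusted p = 0.215) and G6pc (-0.71, adjusted p = 0.113) of gluconeogenesis were not called. Bile acid genes had 2 risers, the uptake carrier Slco1b2 (0.52) and the phospholipid exporter Abcb4 (0.36), and 1 faller, the conjugating enzyme Baat (-0.40), of 23. These made 8.7% and 4.35% of the list, against 3.57% and 3.62% of all tested genes. Cyp7a1, the rate-limiting enzyme of bile acid synthesis, varied from 37.8 to 263 CPM over all livers and was not called (0.95 ± 0.54, adjusted p = 0.357). Circadian clock genes had 0 of 18 called.

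Markers of other cells passed unevenly, and the medians of the macrophage, stellate and endothelial lists had opposite signs in the genotypes. Of 23 tested markers of macrophages that arise from monocytes or gather lipid 4 rose (17.4%, against 3.57% of all tested genes), with medians of 1.09 in wild-type and -0.28 in Mlkl-/- liver. Gpnmb reached 7.25, 4.76 and 0.820 CPM in wild-type HFD livers and stayed between 0.0655 and 0.618 CPM in the other 9, so its averaged call (2.29, edgeR adjusted p = 0.0306) rested on wild-type. Mmp12 (3.66 and 0.25), the stellate cell gene Lum (1.20 and 0.04) and Anxa5 (1.73 and 0.18) were as uneven. The stellate list had medians of 0.62 and -0.23 and the endothelial list 0.27 and -0.54. Summed markers overlapped between diets with the genotypes together. The sums were 397 to 543 CPM on ND and 409 to 777 CPM on HFD for these macrophages. Ranges were 569 to 790 and 375 to 676 CPM for Kupffer cells, and 310 to 530 and 287 to 910 CPM for sinusoidal endothelium. Within Mlkl-/- liver the macrophage sum was lower on HFD without overlap, at 409 to 448 CPM against 462 to 543 CPM. Within wild-type liver the endothelial sum was higher on HFD without overlap, at 588 to 910 CPM against 419 to 530 CPM. In the other genotype each of these sums overlapped between diets. Of 12 cholangiocyte markers 2 rose (16.7%), and their sum ran from 418 to 1669 CPM on ND, the highest in Mlkl-/- ND replicate 1, and from 401 to 1024 CPM on HFD. Adipose markers summed to 69.3 to 96.1 CPM on ND and 74.9 to 235 CPM on HFD. Within wild-type liver their sum was higher on HFD without overlap, at 142 to 235 CPM against 77.1 to 96.1 CPM. Within Mlkl-/- liver it overlapped between diets. Of the 10 adipose genes 4 rose (40%; Adipoq, Lipe, Plin4 and Pparg); Adipoq stayed at or below 3.33 CPM, and Lipe and Plin4 are also droplet genes. The part of these cell types in the shared changes was not tested.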

How the data were processed

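Liver RNA was sequenced as 3' mRNA libraries (QuantSeq kit, NextSeq 500), per the labels' protocols. The authors deposited raw counts per gene for 12 libraries. The submitters' processing notes name cutadapt 1.9, HISAT2, featureCounts, limma and mm10; annotation, strand and the treatment of multiply mapped reads are not stated there. Of 51912 identifiers 21194 had no count. From the counts, edgeR 4.0.16 (R 4.3.3) computed TMM factors (0.922 to 1.16), filterByExpr by group kept 18098 genes, and quasi-likelihood tests with robust dispersions fitted 1 mean per group (8 residual degrees of freedom) with Benjamini-Hochberg adjustment over all genes tested. CPM uses TMM-scaled totals. A log2 change's SE is its size over the square root of F; the interval of the genotype difference combines both genotypes' SEs. limma 3.58.1 (voom) and DESeq2 1.42.0 were alternatives. On simulated data for this comparison, over 17762 genes, 72% of changes at 2-fold and 100% at 4-fold were recovered. These shares hold for the simulated spread, and whether it matches the spread between these livers was not tested. P-values measure the spread between these livers.

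Named genes were, in each direction, up to 14 of largest change among called genes without overlap and a mean of at least 5 CPM. Also named were the 5 of smallest adjusted p in each direction and up to 3 called genes per list. The most and least even genes, genes at the threshold and Mlkl were named too. Genes called in both genotypes, and list members beyond those 3, called or not, were added after values were seen. The members and the lists were chosen with earlier results of these data known. All 772 list symbols matched the table. Promoters came from RefSeq (GRCm38.p6) by symbol, for 453 of 643 risers and 319 of 655 fallers.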

Additional observations from a re-analysis of the deposited data

How the results depend on the processing

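Genes called for the averaged effect, those of the same direction in both genotypes, those also without overlap and those called for the genotype difference numbered 1302, 1298, 633 and 0. Leaving out 1 library gave 616 to 2029, 615 to 1998, 421 to 1203 and 0 to 4. The libraries that moved the first count by over 1.5 times were Mlkl-/- ND replicate 1 (2029 without it), wild-type HFD replicate 2 (616), Mlkl-/- ND replicate 2 (643), Mlkl-/- HFD replicate 1 (660), wild-type ND replicates 3 (705), 2 (710) and 1 (807), and Mlkl-/- HFD replicate 3 (804). Library size alone gave 1980, 1968 and 957. Titles coded 23 or 25 alone gave 48, 48 and 48 with fewer libraries, and titles coded 27 or 29 alone gave 807 and 806. A term for the level of the 8 loci gave 122, 122, 89 and 2; the cause was not tested. DESeq2 gave 50 genes for the genotype difference and testing genes of any count gave 1. Other scaling, filters, limma-voom, an additive model and a term for grouped title codes kept the first 3 counts within 1.5 times. That term set codes 23 and 25 against 27 and 29, a grouping made here, and cannot separate code from diet. Of the 1298 members, 478 were called in all 12 fits without 1 library and 97 of these also with the term for the 8 loci; all 1298 kept their direction with that term, and 1295 among titles coded 23 or 25. Few of those 12 fits kept the call of Adipoq (1), Acot3, Mvd and Mmp12 (3 each), and Lipg, Gpnmb, Psat1 and Rps29 (4 each). None of the 117 named genes changed direction in any setting. Members were chosen for their direction in these same libraries, so kept direction among them was favoured in advance. No paired analysis was possible because the labels give the groups no shared replicate numbers. Changes under 2-fold were not simulated, so the share of them that 3 livers a group recover is not known. Shares for larger changes were read in simulated data only.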

Other observations

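Shared fallers held many pseudogenes. Processed pseudogenes made 28.5% of them (187 of 655), against 2.33% of shared risers (15 of 643) and 11.5% of all tested genes (2076 of 18098). Of the 187, 65 carry the names of ribosomal protein genes, as did 0 of the riser pseudogenes and 167 of all tested genes. Reads of a parent gene can map to its processed copies, and whether these calls repeat those of the ribosomal protein genes was not tested. Protein-coding genes made 89.6% of risers and 56.6% of fallers.

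The noncoding transcripts Meg3 and Rian, expressed from the maternal allele of 1 imprinted cluster on chromosome 12, fell in both genotypes at low levels and were picked out after their values were seen. Meg3 read 0.513 to 2.65 CPM over the ND livers and 0.124 to 0.546 CPM over the HFD livers (-2.53 ± 0.41, edgeR adjusted p = 0.00301). Rian read 0.598 to 1.92 CPM and 0.182 to 0.434 CPM (-2.49 ± 0.36, adjusted p = 0.00192). In each case all HFD livers of a genotype lay below its ND livers. With the level of the 8 loci as a term Meg3 stood at -2.71 (adjusted p = 0.0493) and Rian at -2.74 (adjusted p = 0.0238).

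Across all tested genes the wild-type and Mlkl-/- diet effects had the same sign in 58.7%. Their correlation, over genes that share libraries and are not independent replicates, was 0.29 (Pearson) and 0.23 (Spearman). Over the 10889 genes with a mean of at least 5 CPM it was 0.44 and 0.35, with the same sign in 61.5%.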
